A study of Mus musculus with 8 samples.

Results

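The interleukin 23 and 17 axis was followed in lumbar intervertebral discs of mice with proteoglycan-induced spondylitis. The axis was taken as 9 genes: the cytokine genes Il17a, Il17f, Il22, Il23a, Il12a and Il12b and the receptor genes Il17ra, Il23r and Il12rb1. A gene counted as measured where the array's annotation tied a probe set to that gene alone. This held for 6 of the 9 genes, with 8 probe sets, among 18193 genes with 34945 such probe sets in the whole table. Il17a, Il23a, Il12a and Il12rb1 had 1 probe set each, and Il17ra and Il12b had 2 each. The probe set for Il22 also named Iltifb, so no value was assigned to Il22. Il17f and Il23r were not analysed here.

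Interleukin 23 is a heterodimer of the p19 chain, encoded by Il23a, and the p40 chain, encoded by Il12b. Interleukin 12 joins the same p40 chain to p35, encoded by Il12a, and the receptors of both cytokines share the chain encoded by Il12rb1. Interleukin 23 maintains lymphocytes that make IL-17A, IL-17F and IL-22. IL-17A and IL-17F act on stromal, epithelial and myeloid cells through a receptor of the Il17ra and Il17rc products, which recruits the adaptor Act1 and leads to NF-kB and C/EBP activity. This axis is known in the spine and entheses as a target of treatment in spondyloarthritis.

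The 8 samples came from female BALB/c mice. The 5 immunized samples came from mice injected on days 0, 21 and 42 with cartilage proteoglycan (100 µg of protein) in the adjuvant dimethyldioctadecylammonium bromide (2 mg). The 3 naive samples came from mice matched for age that were not described as having received adjuvant alone, so proteoglycan and adjuvant cannot be told apart. Age and the interval between the last injection and tissue collection are not given in the sources used here. Every sample was RNA of 6 pooled discs (L1 to L6), so whole-disc RNA with any adjoining tissue was measured. In such samples fewer cells of a type and less RNA per cell cannot be told apart. The titles call the replicates biological. For naive replicate 3 and immunized replicate 1 the description combines 2 numbers, and what these stand for is not given.

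Each value is a log2 expression difference from the 8-array median of its own probe set, so a difference of 1 is a doubling and levels of different genes cannot be set against each other. The number of arrays limits the precision. A coarse level survives in the spacing of the printed numbers. It places the lowest array of 31.9% of all probe sets at 8 or more on the log2 scale, of 57.3% at 4 to 8 and of 10.9% below 4. The defining disc and cartilage genes Acan, Col2a1, Comp and Krt19 were in the class of 8 or more. Group differences were tested with limma over all 18193 genes, and a gene is said to have risen or fallen where its Benjamini-Hochberg adjusted p was under 0.05. By that rule 1663 genes changed (9.14%), of which 812 rose (4.46%) and 851 fell (4.68%). The share of calls that were rises was 48.8%, and 59.5% after quantile normalization. It was 67.9%, 81.0% and 68.8% without naive replicates 1, 2 and 3, 68.2% without immunized replicate 1 and 43.1% to 59.9% without any other sample. At an unadjusted p under 0.05 the share of genes was 31.1% (12.9% higher and 18.2% lower). Where the text says so, groups are compared by overlap: 23.4% of genes had groups that did not overlap, 9.39% with immunized samples above and 14% with immunized samples below.

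Of the 6 measured members, the receptor gene Il17ra rose and the other 5 did not pass. The common receptor chain for IL-17A and IL-17F was thus higher in immunized discs while Il17a, both interleukin 23 subunit genes, the p35 gene and the shared receptor gene Il12rb1 had log2 differences between -0.17 and -0.038. With 1 member risen of 6 measured, against 4.46% of all genes, the count itself carries little weight. The members' median difference was -0.048, and that of all genes was -0.035.

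Il17ra (Entrez gene 16172) encodes the receptor chain that binds IL-17A and IL-17F and is also a partner in the receptors for IL-25 and IL-17C. Its values, as the mean of its probe sets, were -0.55, -0.67 and -0.61 in naive replicates 1 to 3. In immunized replicates 1 to 5 they were 0.098, 0.065, 0.65, 0.0078 and 0.32. The groups did not overlap, as in 23.4% of all genes, and immunized replicates 3 and 5 were the highest. In this mean the naive samples spread little (SD 0.062, n = 3) and the immunized samples more (SD 0.26, n = 5). The difference was 0.84 ± 0.14 (SE, limma adjusted p = 0.020), with a 95% confidence interval of 0.51 to 1.16, or 1.79-fold (1.42 to 2.24). By unadjusted p it ranked 243 and by size of rise 487 among the 18193 genes. The exact two-sided permutation test over the 56 ways of assigning the labels gave p = 0.0357, the smallest it can give.

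Both Il17ra probe sets rose. Probe set 1420904_at had naive values of -0.67, -0.55 and -0.52 and immunized values of 0.12, 0.17, 0.86, -0.020 and 0.020. Probe set 1420905_at had naive values of -0.42, -0.79 and -0.71 and immunized values of 0.076, -0.036, 0.44, 0.036 and 0.62. In both probe sets every immunized sample lay above every naive sample. They differ in which immunized sample was the highest: replicate 3 in 1420904_at and replicate 5 in 1420905_at. Naive replicate 1 was the lowest naive sample in 1420904_at and the highest in 1420905_at. The naive SD was 0.080 and 0.19 in these probe sets, above that of their mean. Tested singly over all 45037 probe sets, of which 6.19% changed and 3.3% rose, the differences were 0.81 ± 0.19 (limma adjusted p = 0.0434) and 0.87 ± 0.17 (limma adjusted p = 0.0282). The lowest array was at 8 or more (log2) for 1420905_at and at 4 to 8 for 1420904_at.

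**Figure D1:**
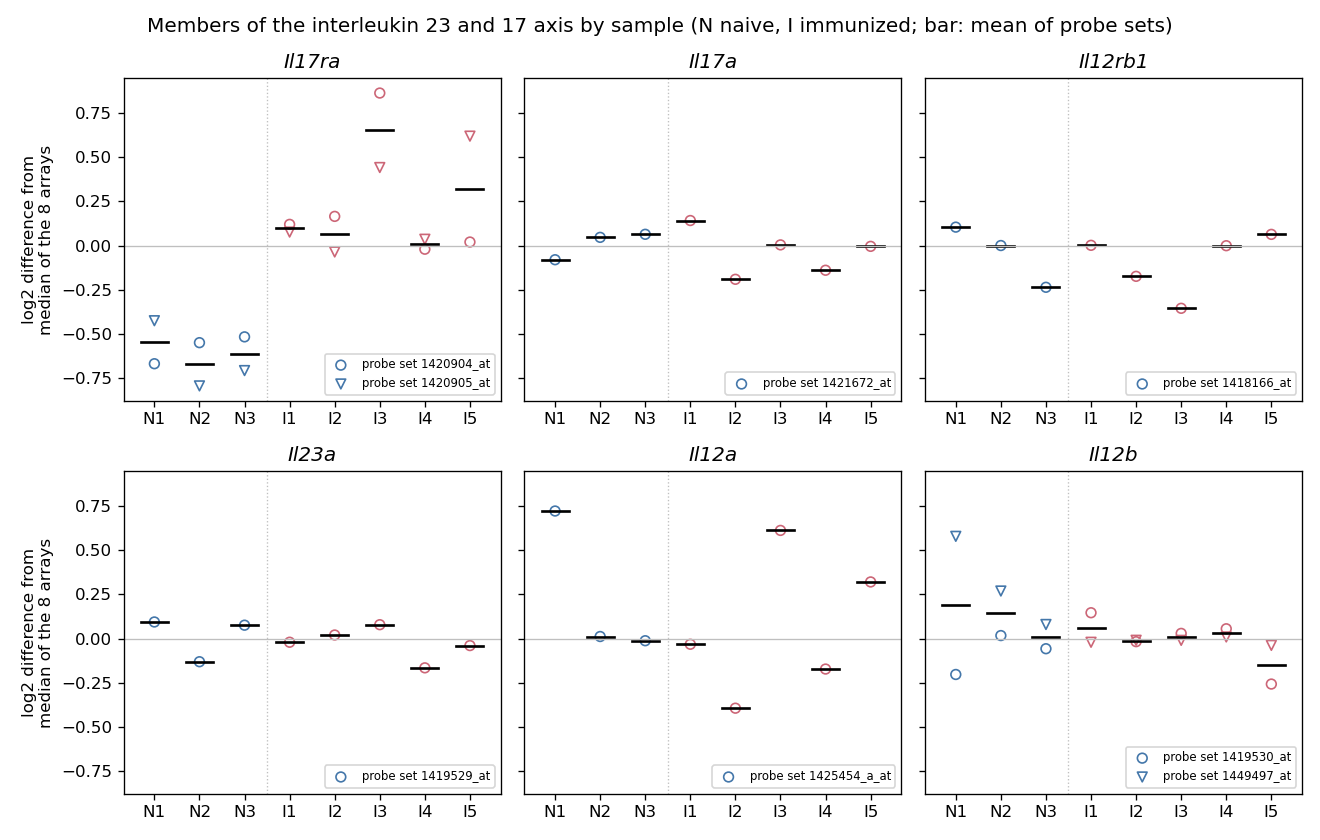
Log2 difference from the median of the 8 arrays (vertical axis) in naive samples N1 to N3 (blue) and immunized samples I1 to I5 (red) for the 6 measured members. Symbols are probe sets and black bars are their mean. Il17ra is the member whose groups are apart, with naive bars from -0.67 to -0.55 and immunized bars from 0.0078 to 0.65. Groups did not overlap in 23.4% of all genes (9.39% with immunized samples above).

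The size of the Il17ra difference moved little when samples were left out, but its place past the threshold did. It lay between 0.73 and 0.89 when any 1 sample was left out. The adjusted p in limma was 0.0521, 0.0767 and 0.0593 without naive replicates 1, 2 and 3, and 0.0541 without immunized replicate 1. Without immunized replicates 2, 3, 4 or 5 it stayed under 0.05 (0.00988, 0.0188, 0.0321 and 0.0461). Without both samples that join 2 numbers the difference was 0.87 and the limma adjusted p was 0.150, a setting in which 0 of all genes passed (1621 higher, 2173 lower by unadjusted p under 0.05). The background moved with it: limma called 374, 21, 176 and 148 genes without naive replicates 1, 2 and 3 and immunized replicate 1, against 1663 with all samples.

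**Figure D2:**
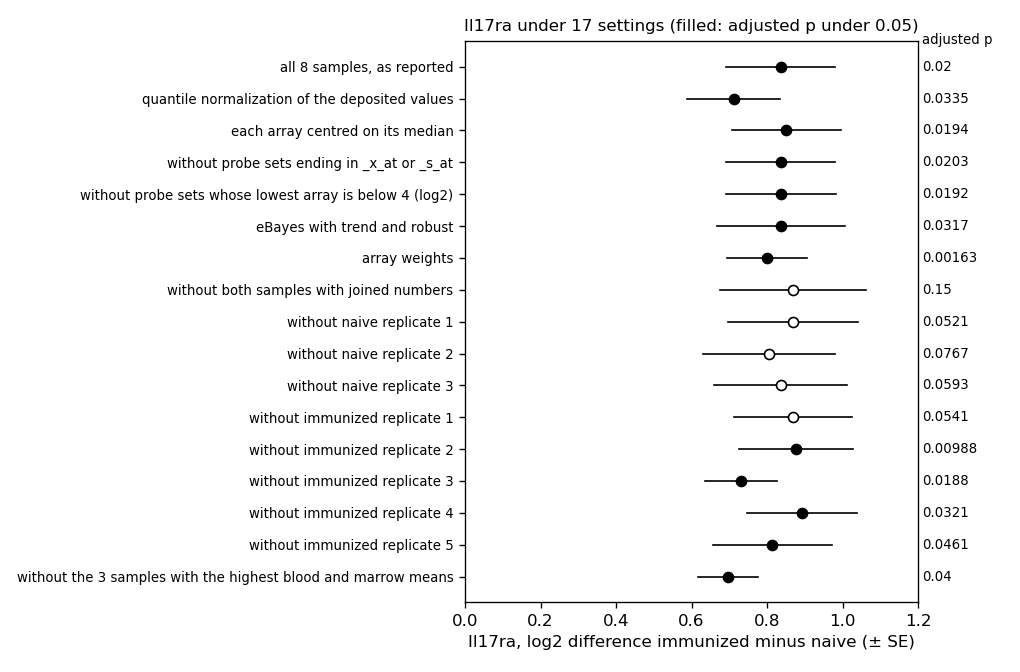
Log2 difference in Il17ra, immunized minus naive, with its SE (horizontal axis) for all 8 samples and for 16 other settings (vertical axis; the fit with a replicate block, which also ended the call, is not drawn); filled points have an adjusted p under 0.05 and open points do not. All points lie between 0.70 and 0.89, and 5 of these 16 settings are open.

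Among the cytokine genes, Il17a, whose product is the defining cytokine of Th17 cells, did not pass. Its values were -0.080, 0.047 and 0.064 in the naive samples and 0.14, -0.19, 0.0041, -0.14 and -0.0041 in the immunized samples. The groups overlapped, and the highest and the lowest values were both in immunized samples. The difference was -0.048 ± 0.092 (SE, limma adjusted p = 0.758), with a 95% confidence interval of -0.26 to 0.16. In fold terms the interval runs from 0.837 to 1.12, and it is one of probe set signal and not of transcript number. Its spread within groups (SD 0.12) was smaller than that of most genes: 29.8% of genes had a smaller one, the median being 0.15. The lowest array was at 4 to 8 (log2).

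Il23a, the gene of the p19 chain that sets interleukin 23 apart from interleukin 12, did not pass either. Its values were 0.094, -0.13 and 0.076 in naive and -0.020, 0.020, 0.079, -0.16 and -0.039 in immunized samples. All immunized values but that of replicate 4 lay within the naive range. The difference was -0.038 ± 0.087 (SE, limma adjusted p = 0.796), with a 95% confidence interval of -0.23 to 0.16, or 0.850-fold to 1.12-fold. Its absolute difference was the smallest among the 6 members, and 12.7% of genes had a smaller one. Its lowest array was at 4 to 8 (log2).

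Il12b, the gene of the p40 chain, was measured by 2 probe sets whose differences had opposite signs, and neither passed. In 1449497_at the naive values were 0.58, 0.27 and 0.080 and the immunized values -0.021, -0.0094, -0.0098, 0.0094 and -0.038. All immunized samples lay below all naive samples in this probe set, and they differed little from each other (SD 0.017, n = 5) while the naive samples spread (SD 0.25, n = 3). Tested singly, the difference of -0.32 ± 0.11 did not pass (limma adjusted p = 0.104, unadjusted p = 0.0169). In 1419530_at the naive values were -0.20, 0.017 and -0.057 and the immunized values 0.15, -0.017, 0.030, 0.056 and -0.26. The groups overlapped in that probe set, with a difference of 0.072 ± 0.11 (limma adjusted p = 0.702), and its lowest array was below 4 (log2), the class of the dimmest 10.9%. As the mean of both, Il12b differed by -0.13 ± 0.079 (SE, limma adjusted p = 0.313), with a 95% confidence interval of -0.30 to 0.054.

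Il12a, the gene of the p35 chain of interleukin 12, was the member that varied most between samples of a group. Its values were 0.72, 0.012 and -0.012 in naive and -0.032, -0.39, 0.61, -0.17 and 0.32 in immunized samples. The groups overlapped, and the high samples were naive replicate 1 and immunized replicates 3 and 5. Its SD within groups was 0.41, and 93.1% of genes had a smaller one. The difference was -0.17 ± 0.25 (SE, limma adjusted p = 0.672), with a 95% confidence interval of -0.74 to 0.39, so this gene is the least well bounded of the 6. The difference was 0.067 without naive replicate 1. The 3 samples high in Il12a were also the 3 highest in the mean of 9 blood and marrow markers (0.37, 0.49 and 0.33, against -0.39 to 0.075 in the other 5 samples). Without these 3 samples Il12a differed by -0.20 ± 0.12 (limma adjusted p = 0.376). The part of these cells in its values was not tested.

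Il12rb1 encodes the chain that the receptors of interleukins 12 and 23 have in common. Its values were 0.10, 0.00049 and -0.24 in naive and 0.0017, -0.17, -0.35, -0.00049 and 0.063 in immunized samples. The groups overlapped over most of their range. The difference was -0.049 ± 0.12 (SE, limma adjusted p = 0.810), with a 95% confidence interval of -0.32 to 0.22, or 0.801-fold to 1.17-fold. Il12rb2, which completes the interleukin 12 receptor, differed by -0.090 ± 0.078 and did not pass (limma adjusted p = 0.463).

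The rise of Il17ra was set against the other receptor genes of its family. Il17rc completes the receptor for IL-17A and IL-17F, Il17rb that for IL-25 and Il17re that for IL-17C, while Il17rd encodes a further family member. Il17ra was taken here because it rose. Il17rb fell by 0.47 ± 0.12 on the log2 scale (limma adjusted p = 0.0492), from 0.21, 0.23 and 0.34 in naive to -0.38, -0.032, 0.032, -0.47 and -0.19 in immunized samples. Il17rc differed by -0.36 ± 0.11 (limma adjusted p = 0.0753), with values of 0.21, 0.35 and 0.087 in naive and -0.13, 0.14, -0.29, -0.16 and -0.27 in immunized samples. The Il17rc groups overlapped through immunized replicate 2. Il17rd (-0.034 ± 0.12) and Il17re (-0.12 ± 0.094) did not pass.

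Within each sample, Il17ra minus each of these 4 genes gives their ratio on the log2 scale up to an unknown constant for each pair. The constant is unknown because each probe set was centred on its own median. The shift between groups can therefore be read, but the sign within a group does not tell which gene was higher. These differences between genes are a description with no test, since Il17ra was chosen for its rise. Il17ra minus Il17rc was -0.82 ± 0.17 (SD, n = 3) in naive and 0.37 ± 0.40 (SD, n = 5) in immunized samples, a shift of 1.19. The shift was 1.31 against Il17rb, 0.96 against Il17re and 0.87 against Il17rd.

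Of the 7 measured genes in the list of other IL-17 ligands and receptors, 0 rose, 2 fell and none had a positive difference (median -0.36, against -0.035 for all genes). By unadjusted limma p under 0.05, 0 were higher and 4 lower. Among all genes 4.46% rose and 4.68% fell, and 12.9% were higher and 18.2% lower at the unadjusted threshold. Il17d, a ligand gene expressed outside lymphocytes, fell by 0.85 ± 0.15 (limma adjusted p = 0.0214), with naive values of 0.66, 0.45 and 0.54 and immunized values of -0.38, 0.069, -0.38, -0.15 and -0.66. Without probe sets ending in _x_at or _s_at it differed by -0.46 (limma adjusted p = 0.0743). Il17b, a ligand of the Il17rb product known from cartilage, had values of 0.89, 0.63 and 0.77 in naive and -0.58, 0.58, -0.73, -0.58 and -1.56 in immunized samples. Its difference of -1.34 ± 0.38 did not pass (limma adjusted p = 0.0586). Every immunized sample lay below every naive one, as in 14% of all genes. Il17d lost its call without naive replicates 1, 2 or 3 or immunized replicate 1 (limma adjusted p = 0.0602 to 0.0719), and Il17rb without any 1 sample other than immunized replicates 2 and 3 (0.0723 to 0.120). The Il17rb difference was -0.55 after quantile normalization (limma adjusted p = 0.112) and did not pass with arrays centred on their medians either (0.0512). Disc and cartilage markers were lower in the same samples: of 9 measured, 2 fell (Sox9 and Krt19) and all 9 differences were negative (8 lower by unadjusted p under 0.05). The number that fell was 0 without naive replicates 1, 2 or 3 or immunized replicate 1, 1 without immunized replicates 3, 4 or 5, and 7 without immunized replicate 2. Their mean ran from 0.44 to 0.65 in naive samples and from -0.86 to 0.44 in immunized samples, with immunized replicate 2 the highest of the latter. It was immunized replicate 2 that also had the highest immunized values of Il17b, Il17d and Il17rc, and the part of disc cell content in these differences was not tested.

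Of 11 measured genes of the IL-12, IL-23, IL-27 and IL-22 receptors and their signalling, 2 rose and 0 fell. By unadjusted limma p under 0.05, 5 were higher and 0 lower. For all genes these shares were 4.46% and 4.68%, and 12.9% and 18.2% unadjusted. Jak2, the kinase bound to the interleukin 23 receptor, rose by 0.44 ± 0.10 (limma adjusted p = 0.0356). Its partner kinase gene Tyk2 differed by 0.035 ± 0.079 and the signal transducer gene Stat3 by 0.13 ± 0.078. Il10rb, whose product forms the IL-22 receptor with that of Il22ra1, rose by 0.64 ± 0.15 (limma adjusted p = 0.0353), and it is also part of the receptors for interleukin 10 and for type III interferons. Il22ra1 itself had a difference of -0.26 ± 0.12 that did not pass (limma adjusted p = 0.171). Stat4, which carries the interleukin 12 signal, had a difference of 0.85 ± 0.23 and lay just outside the threshold (limma adjusted p = 0.0520). Its immunized samples all lay above its naive ones, as in 9.39% of all genes. Ebi3, a p40-related chain of IL-27, had a difference of 1.11 ± 0.34 (limma adjusted p = 0.0701). The Jak2 call was lost without any 1 sample other than immunized replicate 2 (limma adjusted p = 0.0550 to 0.0913), and the Il10rb call without any other than immunized replicates 2 and 4 (0.0648 to 0.109).

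**Figure D3:**
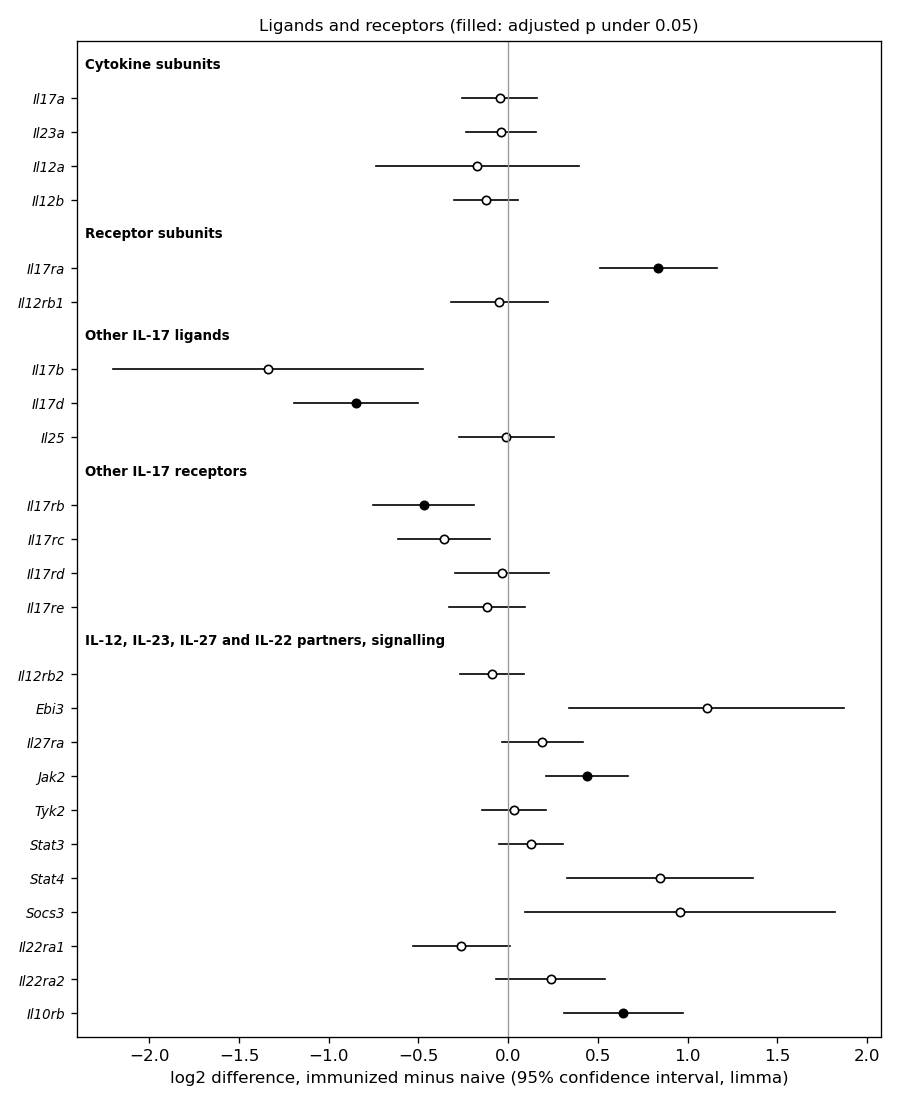
Log2 difference, immunized minus naive, with its 95% confidence interval (horizontal axis) for the measured members, the other IL-17 ligands and receptors, and the partner and signalling genes of the receptors (vertical axis); filled points have an adjusted p under 0.05. Il17ra is the filled point among the members at 0.84, and Il17d and Il17rb are filled on the negative side.

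Within the signalling path below the IL-17 receptor, the genes that rose were Nfkbiz, Cebpb and Cebpd. Of 17 measured genes 3 rose and 0 fell, against 4.46% and 4.68% of all genes. By unadjusted limma p under 0.05, 5 were higher and 2 lower, against 12.9% and 18.2% of all genes. Nfkbiz, whose product IkB-zeta is a co-factor for IL-17-induced genes, rose by 0.90 ± 0.14 (limma adjusted p = 0.0146), from -0.75, -0.66 and -0.70 in naive to 0.57, 0.038, 0.016, 0.35 and 0.026 in immunized samples. Cebpb (0.65 ± 0.17) and Cebpd (0.54 ± 0.13), the C/EBP factors of the path, rose as well (limma adjusted p = 0.0492 and 0.0419). The Cebpb groups overlapped, with -0.12 in naive replicate 3 and -0.23 in immunized replicate 3. The Cebpb call was lost without any 1 sample other than immunized replicates 2 and 3 (limma adjusted p = 0.0553 to 0.143). The Cebpd call was lost without any 1 sample other than immunized replicate 2 (limma adjusted p = 0.0594 to 0.0986). Traf3ip2, which encodes the adaptor Act1, differed by -0.35 ± 0.14 (limma adjusted p = 0.124) and Traf6 by 0.035 ± 0.095 (limma adjusted p = 0.828). Rela, an NF-kB subunit gene, differed by -0.093 ± 0.10 (limma adjusted p = 0.564), and Nfkb1 and Traf3 were not analysed here. Usp25, a deubiquitinase that restrains IL-17 signalling, differed by 0.38 ± 0.14 (limma adjusted p = 0.101) and did not pass. Nor did the adaptor gene Traf5, at -0.21 ± 0.083 (limma adjusted p = 0.121). The groups did not overlap in these 2 genes, as in 23.4% of all genes. The number that rose was 0 without naive replicate 2 or 3, 1 without naive replicate 1 or immunized replicate 1, 4 or 5, 2 without immunized replicate 3 and 4 without immunized replicate 2.

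Of 22 genes known to be induced by IL-17 in stromal and epithelial cells, all measured, 5 rose and 0 fell, with a median difference of 0.42. By unadjusted limma p under 0.05, 11 were higher and 0 lower. The shares for all genes were 4.46% and 4.68%, and 12.9% and 18.2% unadjusted. The 5 that rose were Saa3, Mmp3, Cxcl5, Cxcl2 and S100a9, and other cytokines such as IL-1 and TNF also induce genes of the list. Saa3, an acute phase protein made by stromal and myeloid cells, rose by 4.08 ± 0.48 (limma adjusted p = 0.00902), from -2.55, -3.96 and -3.66 in naive to 1.42, 0.65, -0.61, 1.39 and 0.61 in immunized samples. Mmp3, the matrix-degrading stromelysin, rose by 3.27 ± 0.56 (limma adjusted p = 0.0195), from -2.37, -2.09 and -1.80 to 2.19, 1.57, -0.21, 2.15 and 0.21. Cxcl2, a neutrophil-attracting chemokine, rose by 3.51 ± 0.80 (limma adjusted p = 0.0349), from -2.33, -1.99 and -2.11 to 3.87, 1.00, -0.29, 1.95 and 0.29. In these 3 genes the groups did not overlap, as in 23.4% of all genes. Immunized replicates 3 and 5 were the lowest of the immunized samples. Cxcl5, a chemokine of the same function, rose by 3.13 ± 0.68 (limma adjusted p = 0.0307) and S100a9, a subunit of calprotectin that neutrophils hold in quantity, by 0.40 ± 0.092 (limma adjusted p = 0.0361). Il6 had a difference of 3.23 ± 1.03 that did not pass (limma adjusted p = 0.0763), and its lowest array was below 4 (log2). Nearest to the threshold were Ccl7, a monocyte-attracting chemokine, at 2.07 ± 0.56 (limma adjusted p = 0.0508) and S100a8, the other calprotectin subunit, at 0.28 ± 0.086 (limma adjusted p = 0.0690). Csf2 (0.10 ± 0.087), Ccl20 (0.020 ± 0.10) and Defb4 (-0.017 ± 0.064), which encode a growth factor, a chemokine and a defensin, did not pass. The list was drawn up with the rise of several of its genes in these samples known, so its direction is not independent evidence. The number that rose was 2, 0 and 1 without naive replicates 1, 2 and 3, 2 without immunized replicate 1, 3 without immunized replicate 4 or 5, 4 without immunized replicate 3 and 7 without immunized replicate 2.

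**Figure D4:**
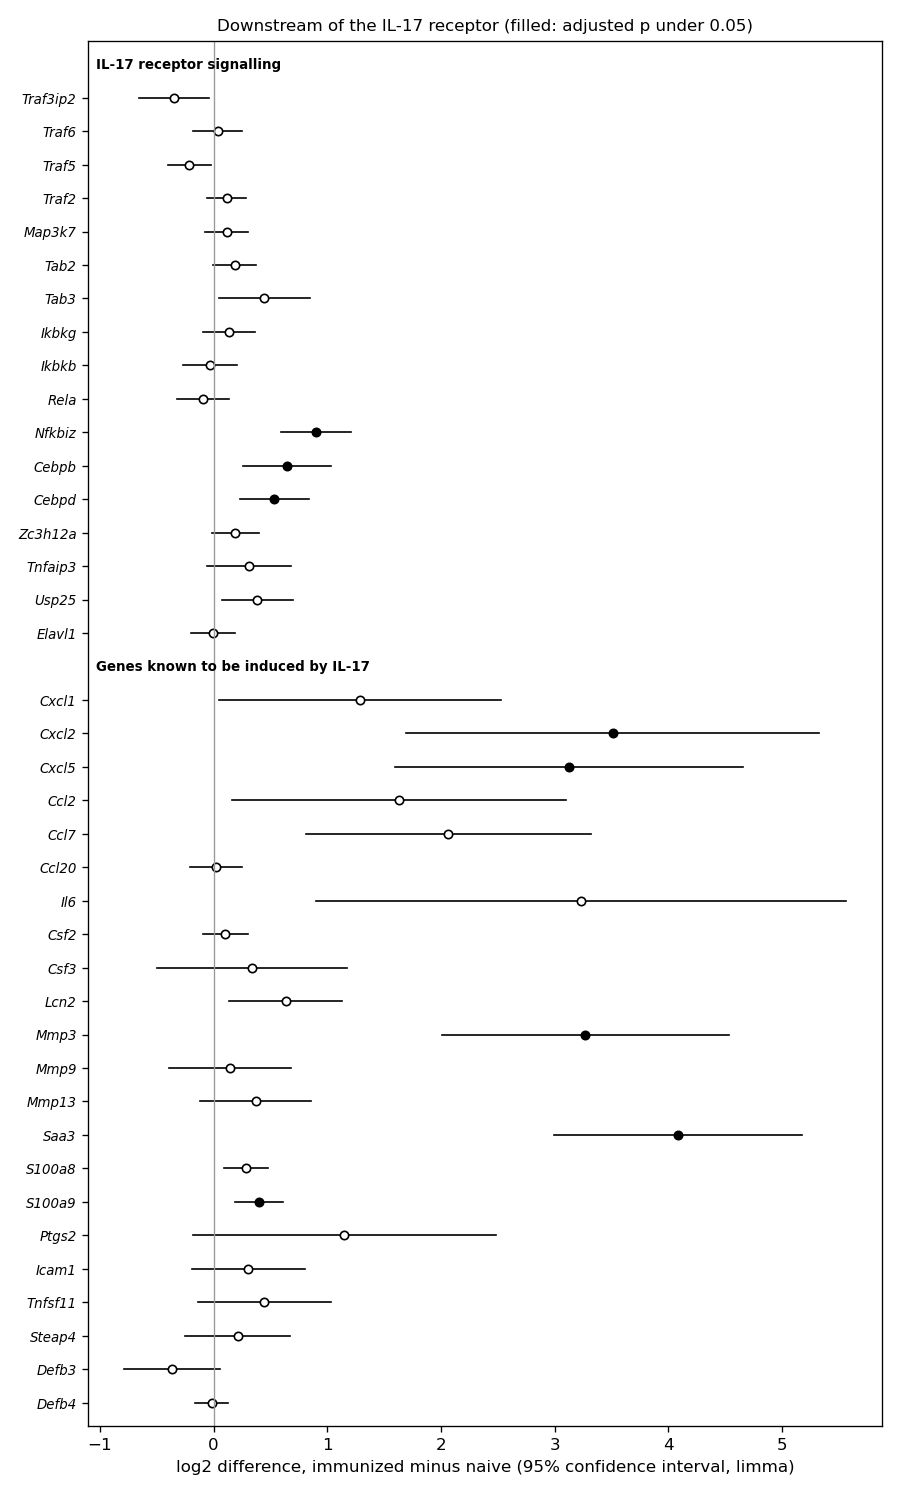
Log2 difference, immunized minus naive, with its 95% confidence interval (horizontal axis) for 17 genes of IL-17 receptor signalling and 22 genes known to be induced by IL-17 (vertical axis); filled points have an adjusted p under 0.05. Filled points are 3 signalling genes (Nfkbiz, Cebpb and Cebpd) between 0.54 and 0.90 and 5 induced genes between 0.40 and 4.08, and the adaptor genes Traf6 and Traf3ip2 lie at 0.035 and -0.35 with open points.

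The promoters of 3 of the risen genes are shown because they carry sequences that match the factors of the path. They are the 250 bases before the transcript start in RefSeq (GRCm38.p6), with matches in capitals: the NF-kB consensus, and TTGCNNAA for C/EBP. Both were searched on both strands. Cxcl2 lies at chr5:90903649-90903898 (+ strand) and holds 2 NF-kB matches, which overlap. Saa3 lies at chr7:46715677-46715926 (- strand) and Mmp3 at chr9:7445572-7445821 (+ strand), each with 1 C/EBP match.
Cxcl2: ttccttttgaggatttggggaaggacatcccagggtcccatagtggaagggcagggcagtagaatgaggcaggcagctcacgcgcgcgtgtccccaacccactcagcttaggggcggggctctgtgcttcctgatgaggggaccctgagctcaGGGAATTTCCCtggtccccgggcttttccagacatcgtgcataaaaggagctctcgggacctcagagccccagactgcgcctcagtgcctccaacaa
Saa3: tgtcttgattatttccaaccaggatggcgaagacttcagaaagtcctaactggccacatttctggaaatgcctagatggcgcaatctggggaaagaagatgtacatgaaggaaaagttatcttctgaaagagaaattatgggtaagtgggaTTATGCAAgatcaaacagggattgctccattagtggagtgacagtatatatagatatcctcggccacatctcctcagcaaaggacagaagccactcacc
Mmp3: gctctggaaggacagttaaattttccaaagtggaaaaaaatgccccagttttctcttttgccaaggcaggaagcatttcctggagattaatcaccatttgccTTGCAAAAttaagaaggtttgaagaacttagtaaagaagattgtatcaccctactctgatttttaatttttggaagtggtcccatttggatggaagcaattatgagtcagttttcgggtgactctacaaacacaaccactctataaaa
Among the 16 induced genes with a promoter in the table, 5 held the NF-kB consensus and 9 the C/EBP letters, against 3.90% and 9.56% of all 32851 promoters. A gene counted where any promoter of it matched, while the percentages are of single promoters, so these were not counted alike. Among 6 members with a promoter there, 0 held the NF-kB consensus and Il23r held the C/EBP letters. Among the induced genes with the NF-kB consensus, Cxcl2 rose, while Ccl20, Cxcl1, Il6 and Steap4 did not pass. Among those with the C/EBP letters, Saa3, Mmp3 and S100a9 rose, while Csf2, Defb3, Il6, Lcn2, Ptgs2 and Steap4 did not pass. These matches describe letters in a window, and the motifs were chosen after the values were known.

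Il17ra and the induced genes were not highest in the same samples. The mean of the 22 genes was 1.17 in immunized replicate 1 and 1.07 in replicate 4, where Il17ra was 0.098 and 0.0078. In immunized replicates 3 and 5 the mean was -0.081 and 0.11. There Il17ra, as the mean of its probe sets, was at its highest (0.65 and 0.32). Its probe sets disagreed on replicate 5, with 0.62 in 1420905_at and 0.020 in 1420904_at. Saa3 showed the order of the list: 1.42 and 1.39 in immunized replicates 1 and 4, against -0.61 and 0.61 in replicates 3 and 5. Both measures were low in all 3 naive samples, where the mean lay between -0.75 and -0.63.

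Leukocyte markers also differed between the groups, and the lists were highest in different immunized samples. Across all genes 4.46% rose and 4.68% fell, and 12.9% were higher and 18.2% lower at an unadjusted limma p under 0.05. Of 9 neutrophil markers 3 rose (S100a9, Mmp8 and Cxcr2; 8 were higher at an unadjusted p under 0.05), and their mean ran from -0.67 to -0.093 in naive and from -0.13 to 0.60 in immunized samples, with the highest values in immunized replicates 5 and 3 (0.60 and 0.55). The number that rose was 2 without naive replicate 1 or immunized replicate 4, 7 without immunized replicate 2 and 0 without any other sample. Of 13 dendritic cell and macrophage markers 5 rose (Adgre1, Itgam, Mpeg1, Mrc1 and Cd14), with means of -0.64 to -0.27 in naive and -0.015 to 0.56 in immunized samples. This mean was highest in immunized replicates 1 and 4 (0.56 and 0.53), where Il17ra was 0.098 and 0.0078, and it was 0.18 and 0.19 in replicates 3 and 5, where Il17ra was 0.65 and 0.32. That number was 3 without naive replicate 1, 0 without naive replicate 2 or 3 and 1 without immunized replicate 1. Of 9 blood and marrow markers 0 rose or fell in limma (unadjusted, 3 higher and 1 lower), with means of -0.39 to 0.37 and -0.23 to 0.49. The naive neutrophil mean was highest in replicate 1 (-0.093), and the immunized one was lowest in replicate 2 (-0.13). Il17ra in naive replicate 1 was -0.55 as the mean of its probe sets, with -0.67 in 1420904_at and -0.42 in 1420905_at. Naive replicate 1 and immunized replicates 3 and 5 had the highest blood and marrow means. Without these 3 samples Il17ra differed by 0.70 ± 0.080 (limma adjusted p = 0.040, 218 genes called), a setting added after the data were seen. In the samples kept, the neutrophil mean was -0.59 and -0.67 in naive replicates 2 and 3. It was 0.22, -0.13 and 0.066 in immunized replicates 1, 2 and 4. Leukocyte markers thus still differed between the groups there, and their part in the Il17ra difference was not tested.

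**Figure D5:**
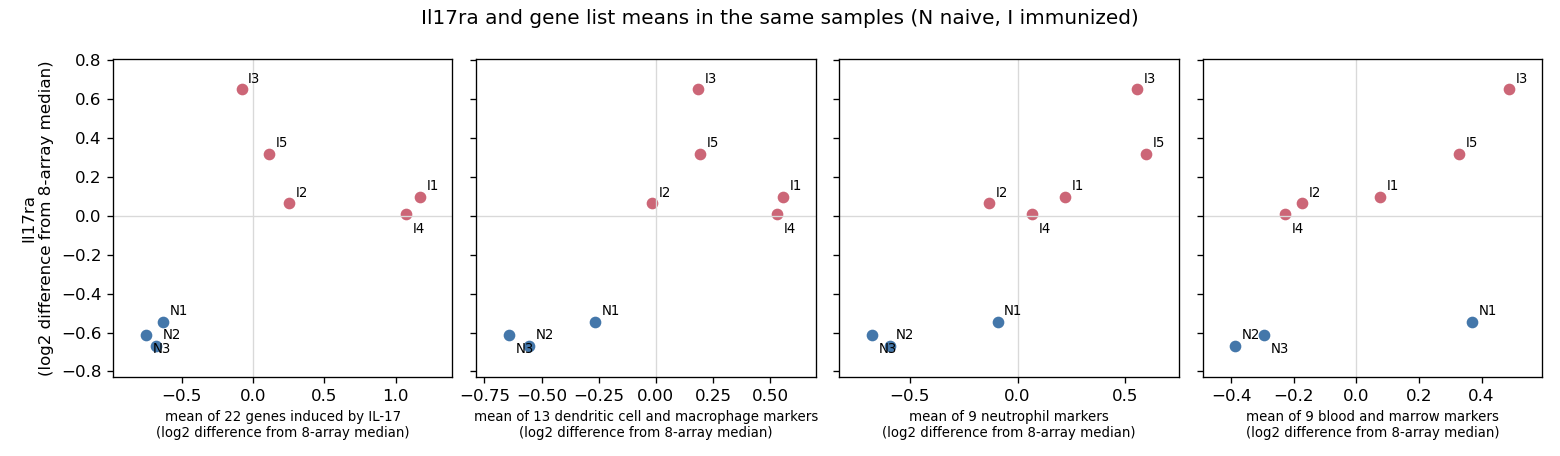
Il17ra (vertical axis) against the mean of 4 gene lists (horizontal axes) in the same samples, both as log2 difference from the median of the 8 arrays, with naive samples N1 to N3 in blue and immunized samples I1 to I5 in red. Among immunized samples I3 and I5 are high in Il17ra, neutrophil and blood and marrow means, and I1 and I4 in the mean of IL-17-induced genes. Il17ra is the mean of its probe sets, which differ on I5 (0.62 in 1420905_at and 0.020 in 1420904_at).

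Markers of the lymphocytes that make IL-17A gave no uniform picture. Their counts stand beside 4.46% risen and 4.68% fallen among all genes, and 12.9% higher and 18.2% lower by unadjusted limma p under 0.05. Of 13 measured genes of the Th17 programme and its inducers 2 rose and 0 fell (4 higher, 0 lower by unadjusted limma p under 0.05), with a median difference of 0.0071. They were Ahr (0.54 ± 0.13, limma adjusted p = 0.0388), a ligand-activated transcription factor, and Cd44 (0.72 ± 0.13, limma adjusted p = 0.0214), an adhesion receptor, and neither is restricted to Th17 cells. Batf, a factor needed for Th17 differentiation, had a difference of 0.40 ± 0.13 (limma adjusted p = 0.0812) and Il10 one of 0.25 ± 0.088 (limma adjusted p = 0.0929). Ccr6, the chemokine receptor of Th17 cells, differed by -0.20 ± 0.14 and Il21 by 0.0071 ± 0.094, and neither passed. Of 11 markers of gamma delta T cells and innate lymphoid cells 0 passed in limma (3 higher, 1 lower by unadjusted p under 0.05), with Kit at 0.60 ± 0.18 (limma adjusted p = 0.0702) and Il7r at 1.06 ± 0.36 (limma adjusted p = 0.0921) nearest to the threshold. Among 11 markers of T cells 1 rose and 1 fell (3 higher, 1 lower by unadjusted limma p under 0.05). Cd3g rose by 1.03 ± 0.23 (limma adjusted p = 0.0348) and Cd8b1 fell by 0.39 ± 0.076 (0.0253). Cd3d had the largest difference of these markers, 1.09 ± 0.35, and did not pass (limma adjusted p = 0.0791). Cd4 differed by -0.085 ± 0.088 and did not pass. The costimulatory receptor gene Cd28 lay just outside the threshold at 0.45 ± 0.12 (limma adjusted p = 0.0508). The mean of the T cell markers lay between -0.23 and 0.078 in naive and between -0.038 and 0.20 in immunized samples. The Ahr call was lost without any 1 sample other than immunized replicate 2, the Cd44 call without a naive sample or immunized replicate 1, the Cd3g call without naive replicates 2 or 3 or immunized replicates 1, 4 or 5, and the Cd8b1 call without naive replicates 1 or 2 or immunized replicates 1 or 5 (limma adjusted p between 0.0528 and 0.110).

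Of 8 genes of the Th1 programme, on the interleukin 12 side of the axis, 3 rose and 0 fell. By unadjusted limma p under 0.05, 4 were higher and 0 lower. For all genes the shares were 4.46% and 4.68%, and 12.9% and 18.2% unadjusted. The 3 that rose all encode receptor chains: Il18r1 (1.08 ± 0.16, limma adjusted p = 0.0148) and Il18rap (1.01 ± 0.27, 0.0492) for interleukin 18, and Ifngr1 (0.64 ± 0.12, 0.0239) for interferon gamma. Il18r1 was -0.76, -0.76 and -0.77 in naive and 0.013, -0.013, 0.55, 0.34 and 0.68 in immunized samples. Replicates 3 and 5 were its highest, as for the mean of the Il17ra probe sets. Tbx21, the transcription factor of Th1 cells, differed by 0.26 ± 0.10 and did not pass (limma adjusted p = 0.118), nor did Ifngr2, the other chain of the interferon gamma receptor, at 0.16 ± 0.092 (limma adjusted p = 0.282). Ifng, the gene of interferon gamma itself, differed by -0.11 ± 0.080 and did not pass (limma adjusted p = 0.395). Its lowest array was below 4 (log2). The number that rose was 2, 0 and 0 without naive replicates 1, 2 and 3, 1 without immunized replicate 1 or 5, and 2 or 3 without the others.

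The 3 genes whose values were most like those of Il17ra over the 8 samples, among all 18193, were Skap2 (Pearson r = 0.992), Il1f9 (0.987) and Ipcef1 (0.986). Skap2 encodes an adaptor protein of leukocytes, Il1f9 the cytokine IL-36 gamma and Ipcef1 a partner of cytohesins. Chosen as the highest of so many, these values describe likeness only. All 3 genes had no overlap between the groups, as in 23.4% of all genes. Il1f9 rose by 1.66 ± 0.25 (limma adjusted p = 0.0144), Skap2 by 0.43 ± 0.092 (0.0300) and Ipcef1 by 0.78 ± 0.17 (0.0300). Il1f9 lost its call without naive replicate 2 or 3 (limma adjusted p up to 0.0669), and Skap2 and Ipcef1 without any naive sample or immunized replicates 1 or 5 (up to 0.0980 and 0.0851).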

How the data were processed

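The deposited values are log2 expression per probe set, which the authors computed with RMA, per the submitters' processing notes, in a version not stated there. They are centred, a step the labels do not record: no probe set's median across the arrays departs from 0 by more than 5.0e-07. Absolute level is therefore lost and group differences are kept. Array medians lay between -0.012 and 0.016.

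Genes were named through the platform annotation and a RefSeq table (GRCm38.p6); 34945 probe sets named 1 gene, 932 several and 9160 none, and 64 control probe sets were left out. A gene was the mean of its probe sets. Groups, 5 immunized and 3 naive samples, came from the titles. No covariate entered the two-sided test, which used lmFit and eBayes of limma 3.58.1 under R 4.3.3, with Benjamini-Hochberg adjustment over 18193 genes and a threshold of 0.05; the code was tested on simulated data. Errors are limma's SE unless SD is stated.

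The members, the gene lists and the tests were chosen with earlier results of these data known. Named genes are all members, the genes of each pathway list that passed (at most 6) with the 2 of largest moderated t among the rest, and the 3 genes most like the member with the smallest p. Further list genes and the marker values were chosen after their values were seen. Alternatives were 3 scalings or probe set filters beside array centring, eBayes with trend and robust set, array weights, a replicate block, other thresholds, single probe sets, and samples left out. No scan date or batch was available here. Apart from what the labels call biological, nothing says how samples were taken, so p-values measure the spread between these samples.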

Additional observations from a re-analysis of the deposited data

How the results depend on the processing

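With the replicate number as a block, the Il17ra difference was 0.88 (limma adjusted p = 0.101), and without both samples with joined numbers 0.87 (0.150); leaving out 1 sample gave 0.73 to 0.89. Over its alternatives the limma adjusted p ran from 0.00163 to 0.150. The differences that did not pass changed sign in some settings. With array weights they were 0.032 for Il12rb1, 0.0026 for Il17a and 0.018 for Il23a. Il23a was 0.013 with the replicate block, Il12b was 0.072 in probe set 1419530_at, and Il12rb1 was 0.060 without the 3 samples with the highest blood and marrow means, a setting added after the data were seen. Leaving out 1 sample gave -0.31 to 0.067 for Il12a, -0.14 to 0.025 for Il12rb1 and -0.11 to 0.0022 for Il23a.

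The number of genes called in limma was 1663, and 908 after quantile normalization, 5900 with array weights, 7 with the replicate block, 0 without both joined samples (1621 higher and 2173 lower, unadjusted), 218 without the 3 samples named above, 3783 at an adjusted p under 0.1, 2787 as single probe sets and 21 to 3003 with 1 sample left out. Of these calls 59.5% were higher after quantile normalization. In the pathway lists 15 genes rose and 2 fell. In the same order these were 8 and 1 after quantile normalization, 32 and 4 with array weights, 0 and 0 with the block, 0 and 0 without the joined samples, 4 and 0 without the 3 samples, 23 and 4 at an adjusted p under 0.1, and 0 to 21 and 0 to 4 with 1 sample left out. The number that fell was 1 with arrays centred on their medians and 1 without probe sets ending in _x_at or _s_at. Of the IL-17-induced genes 5 rose, and 3 after quantile normalization, 13 with array weights, 0 with the block, 0 without the joined samples, 2 without the 3 samples, 9 at an adjusted p under 0.1 and 0 to 7 with 1 sample left out. The causes were not tested, and fewer samples enter the fits that leave samples out.

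For the pairing, the deviations of same-numbered samples from their group means had r = -0.047, 0.24 and -0.10 for numbers 1 to 3. They were not above 0.1 for every number, and 1 of 6 samples correlated best with its own number, so the numbers were not taken to pair the samples.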
